A study of Mus musculus with 16 samples.

Results

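Integrins are the cell surface receptors through which cells hold on to the extracellular matrix and to each other, and laminins are the trimeric proteins that form the core of the basement membranes to which many of these receptors bind. All genes whose symbol names an integrin alpha or beta subunit or a laminin alpha, beta or gamma chain were taken from the gene table, which gave 37 genes of 55487, namely 26 integrin and 11 laminin genes. They were followed in the cortex of 16 wild-type (WT) male C57Bl6 mice at an age of 2 months. Each mouse received 2 i.p. injections on consecutive days, of lipopolysaccharide (LPS, a component of the outer wall of Gram-negative bacteria) at 2 mg/kg or of phosphate buffered saline (PBS), and the cortex was taken 24 hours after the last of them. Injections were given either at ZT1, which is 1 hour after lights on, or at ZT13, which is 1 hour after lights off, with 3 PBS and 5 LPS mice at each time of day (TOD). Tissue was therefore also collected at the TOD of injection, so that the TOD of the injection and that of the harvest cannot be told apart.

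An integrin is a pair of 1 alpha and 1 beta chain, and the pairing decides what it binds. The beta2 chain, paired with alphaL, alphaM, alphaX or alphaD, is found on leukocytes and, in the brain, on microglia, and it binds ICAM proteins and complement. The beta1 chain is nearly ubiquitous and pairs with receptors for laminin, fibronectin and collagen. In the walls of brain vessels, endothelial cells, pericytes and astrocyte endfeet share a basement membrane in which laminins with an alpha4 or alpha5 chain are made mainly by endothelium, those with alpha2 by astrocytes and mural cells, and gamma1 is the gamma chain common to most of them. These pairs are known for leukocyte arrest on endothelium and for anchoring the vessel wall at the blood-brain barrier (BBB).

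RNA was measured in the deposited unit of CPM, the reads on a gene for every 1000000 reads on all genes of the sample. From the steps between low values, each mouse had between 20251840 and 29112760 reads on genes, so that 3 reads amounted to 0.103 to 0.148 CPM. A gene was tested where 3 or more mice had 1 CPM or more, which held for 34 of the 37 (23 integrins and all 11 laminins), and Itgae, Itgb6 and Itgax were not. Groups follow the sample titles. A second label, the treatment entry, names the other treatment for 12 of the 16 mice. Gfap, which encodes an intermediate filament of reactive astrocytes, lay at 111 to 123 CPM in all 6 PBS mice by title, and the 10 LPS mice had 572 to 1134 CPM. Markers of neurons were present throughout (7 genes, 7138 to 7885 CPM in sum per mouse). Markers of the choroid plexus, a tissue outside the cortex, varied from 10.4 to 947 CPM in sum between mice, with low and high mice in each group.

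Without LPS, the integrin chains with the highest level per length were Itgav (alphaV), Itgb1 (beta1) and Itgb5 (beta5). Expressed as CPM per kb of exon over the 6 PBS mice, Itgav was at 9.62 ± 0.36 (SD, n = 6), Itgb1 at 9.61 ± 0.46 and Itgb5 at 8.83 ± 0.39, and their ranges overlapped. The 2 most abundant laminin chains followed, with Lamc1 (gamma1) at 6.88 ± 0.43 and Lamb2 (beta2 chain of laminin) at 6.87 ± 0.49 CPM per kb. Next came Itgb8 at 5.29 ± 0.26 and Itga3 at 5.16 ± 0.41 CPM per kb. The alpha chains of laminin were lower, from 1.95 ± 0.36 CPM per kb for Lama5 to 1.05 ± 0.094 for Lama3. Among the leukocyte chains, Itgam (alphaM) was at 2.75 ± 0.23 and Itgb2 at 1.11 ± 0.15 CPM per kb, while Itgal stood at 0.195 ± 0.049. The lowest 4 were Itgad (0.0493 ± 0.023), Itgax (0.0340 ± 0.017), Itgae (0.0249 ± 0.021) and Itgb6 (0.0156 ± 0.0086 CPM per kb). In this order 31 of the 36 neighbouring pairs had overlapping ranges, so that most adjacent ranks do not differ beyond the spread between mice.

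To determine which integrins and laminins respond to LPS, LPS and PBS mice were compared at each TOD on the log2(CPM + 0.5) scale. At ZT1, 14 of the 34 tested genes were higher after LPS and 0 were lower, beside a background in which 16.2% of all 18859 tested genes were called (11.1% higher and 5.15% lower). An unadjusted p under 0.05 was reached by 17 of the 34 (30.3% of all tested genes), and 25 had a positive log2 fold change (59.1%). At ZT13, 20 were higher and 2 lower, against a background of 28.6% (19.2% higher and 9.4% lower), with 25 at an unadjusted p under 0.05 (38.3%) and 24 positive (60.2%). The integrins made up 10 of the 14 and 16 of the 20 higher genes and the laminins 4 at each time. All 14 genes called at ZT1 were among the 20 called higher at ZT13, and the 6 further ones were Itga1, Itga11, Itga2b, Itga3, Itga7 and Itgb3. Itga2, Itgad and Itgb7 reached the limit for testing through LPS mice alone, so that their tests favour a difference. Without these 3, 12 of 31 genes were higher and 0 lower at ZT1 and 18 higher and 2 lower at ZT13, and the median log2 fold change was 0.12 and 0.34, against 0.040 and 0.050 over all tested genes. For the 11 laminins alone it was -0.0042 and -0.027. Groups that did not overlap were seen for 13 genes higher and 1 lower at ZT1 (15.9% and 8.41% of all tested genes) and for 20 higher and 3 lower at ZT13 (20.9% and 10.3%), or for 10 and 1 and for 18 and 3 without these genes. The direction counts depended on scaling: with median-of-ratios factors the genes called split into 11 higher and 1 lower at ZT1 and 18 higher and 5 lower at ZT13, and with quantile normalization into 10 and 2 and into 17 and 5. Over all tested genes the share of calls that were higher went from 68.2% to 54.1% and 51.1% at ZT1 and from 67.2% to 51.0% and 45.0% at ZT13 under these scalings.

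**Figure D1:**
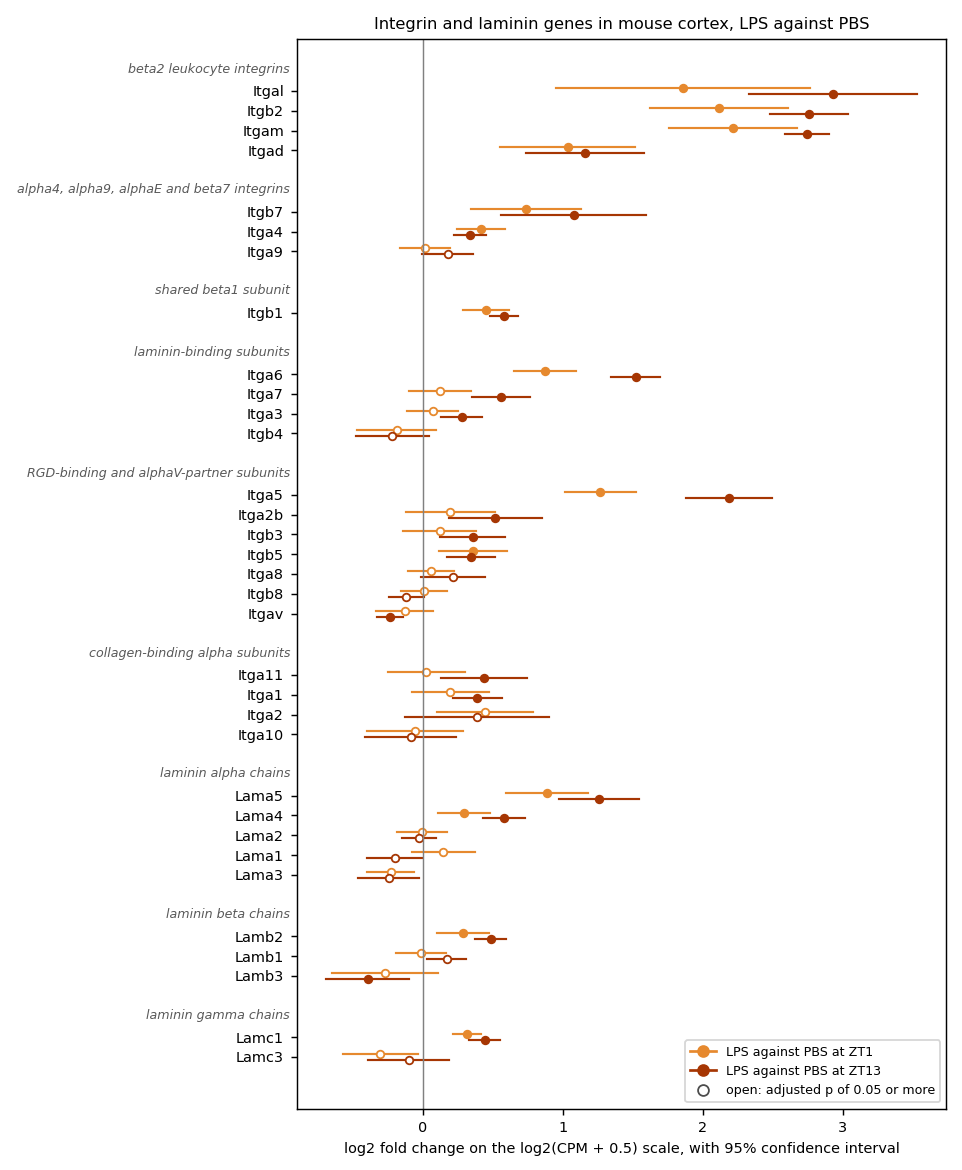
Log2 fold change of LPS against PBS (x axis, on the log2(CPM + 0.5) scale) with its 95% confidence interval for 33 of the 34 tested integrin and laminin genes, grouped by role, at ZT1 (light) and ZT13 (dark), from 3 PBS and 5 LPS mice at each time. Filled points have an adjusted p under 0.05: 14 genes at ZT1, all to the right of 0, and 22 at ZT13, of which Itgav and Lamb3 lie to the left.

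The largest increases were in the beta2 leukocyte integrins, of which Itgam, Itgb2 and Itgal were higher at both times. Itgam encodes alphaM (CD11b), which with beta2 forms complement receptor 3 of neutrophils, monocytes and microglia. At ZT1, Itgam was at 15.6, 12 and 13.7 CPM in the PBS mice and at 92.4, 40.5, 67, 79.7 and 60.2 CPM in the LPS mice. For Itgam at ZT13, the PBS mice had 13.9, 14.1 and 13.7 CPM and the LPS mice 102, 90.9, 102, 105 and 81.9 CPM. Every LPS mouse lay above every PBS mouse at its TOD, and the LPS mice were more widely spread at ZT1 than at ZT13. The log2 fold change was 2.22 ± 0.21 (SE, adjusted p = 3.76e-05) at ZT1 and 2.75 ± 0.072 (adjusted p = 1.25e-11) at ZT13. Of the exon bases of Itgam, 68.7% are shared with Gm49368, a gene model on the same strand listed at 0 to 0.842 CPM, and reads on these bases could have been split between the 2 names.

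Itgb2, the beta chain that alphaL, alphaM, alphaX and alphaD all require, followed the same course. At ZT1, Itgb2 went from 3.94, 2.86 and 3.45 CPM with PBS to 24.9, 10.4, 16.4, 20.4 and 13.6 CPM with LPS, and at ZT13 from 2.85, 3.7 and 3.54 to 24.7, 24.2, 31.1, 29.2 and 19.9 CPM. These were log2 fold changes of 2.12 ± 0.23 (adjusted p = 9.94e-05) and 2.76 ± 0.13 (adjusted p = 2.77e-09), with no overlap between treatments at either time. Itgal encodes alphaL, the partner of beta2 in LFA-1, which binds ICAM-1 on endothelium and is known from lymphocytes and other leukocytes. Itgal had 1.53, 1.04 and 1.35 CPM in ZT1 PBS and 13, 2.6, 5.22, 11 and 3.76 CPM in ZT1 LPS mice, then 1.14, 0.879 and 1.75 in ZT13 PBS and 11.6, 14.3, 16.4, 18.8 and 6.09 in ZT13 LPS mice. It was the most uneven of the 4 between LPS mice, and its log2 fold change was 1.86 ± 0.41 (adjusted p = 0.0104) at ZT1 and 2.93 ± 0.28 (adjusted p = 2.7e-06) at ZT13. Without ZT1 PBS replicate 2 or with no filter on low values, the ZT1 call of Itgal was lost.

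Itgad and Itgax, the 2 remaining alpha partners of beta2, were close to the limit of detection. At ZT1, Itgad was at 0.247, 0.199 and 0.126 CPM after PBS and 1.01, 1.48, 0.674, 1.01 and 0.563 CPM after LPS, and at ZT13 at 0.342, 0.0925 and 0.328 and 0.857, 1.04, 1.38, 1.52 and 1.1 CPM. The treatments did not overlap at either time, but no PBS mouse reached 1 CPM, and Itgad entered the test through its LPS mice alone. Its fitted log2 fold changes, 1.04 ± 0.22 at ZT1 and 1.16 ± 0.20 at ZT13, are therefore given as values only, and they ranged from 0.58 to 1.81 and from 0.74 to 1.93 over the other settings. Itgax (alphaX, CD11c) was listed at 0.296, 0.197 and 0.168 CPM in ZT1 PBS, 1.14, 0.485, 0.287, 0.777 and 0.66 in ZT1 LPS, 0.152, 0.0463 and 0.12 in ZT13 PBS and 0.737, 1.11, 0.797, 0.676 and 0.328 CPM in ZT13 LPS mice and was too low to be tested. Within the pool of the 4 alpha partners, counted per kb, Itgam made up 90.6% ± 0.61 (SD, n = 3) in ZT1 PBS, 90.8% ± 2.4 (n = 5) in ZT1 LPS, 91.2% ± 3.1 (n = 3) in ZT13 PBS and 88.9% ± 2.8 (n = 5) in ZT13 LPS mice. The pool as a whole rose from 3.03 ± 0.41 to 15.0 ± 4.6 CPM per kb at ZT1 and from 3.03 ± 0.065 to 21.7 ± 2.6 CPM per kb at ZT13. The share of Itgam overlapped between treatments at both times. The share of Itgax, on few reads, was 1.17% to 1.78% in ZT1 PBS and 0.417% to 1.14% in ZT1 LPS mice, without overlap. At ZT13 the Itgax share overlapped, at 0.325% to 1.04% in PBS and 0.39% to 1.11% in LPS mice.

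Itgal, Itgam, Itgax and Itgad lie in this order on chromosome 7 of GRCm38, with Itgam at 128062640 to 128118491 (plus strand), 11.1 kb before Itgax, which ends 3.7 kb before Itgad, while Itgal ends 727.5 kb before Itgam. The 250 bases before the start of Itgam and of its neighbour Itgax are shown because the first of these genes is abundant and the second close to absent in the same tissue. Capitals mark the letters GAGGAA on either strand (the core bound by PU.1, a transcription factor of myeloid cells), the GC box GGGCGG on either strand and the AP-1 letters TGANTCA. Both are on the plus strand of RefSeq's GRCm38.p6.
Itgam, chr7:128062390-128062639: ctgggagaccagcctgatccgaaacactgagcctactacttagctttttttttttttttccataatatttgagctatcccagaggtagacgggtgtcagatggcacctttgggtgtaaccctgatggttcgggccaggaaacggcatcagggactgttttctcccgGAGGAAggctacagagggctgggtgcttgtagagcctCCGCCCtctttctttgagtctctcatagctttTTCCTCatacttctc
Itgax, chr7:128129300-128129549: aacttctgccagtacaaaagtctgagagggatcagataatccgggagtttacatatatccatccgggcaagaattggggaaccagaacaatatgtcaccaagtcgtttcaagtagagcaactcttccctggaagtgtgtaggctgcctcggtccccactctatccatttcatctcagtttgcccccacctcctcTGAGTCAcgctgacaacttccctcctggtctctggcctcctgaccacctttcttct
The Itgam window holds the PU.1 letters at 2 places and a GC box at 1, and the Itgax window holds an AP-1 match alone. Windows were at hand for 23 of the 37 genes (26 windows in all), of which 13 held the PU.1 letters, 9 the GC box, 1 the AP-1 letters and 0 the E-box CACGTG or an NF-kappaB site. Among 32851 windows of the same length these letters were found in 23.3%, 32.7%, 6.7%, 6.0% and 0.4%. A match of letters describes the sequence and was not tested for binding.

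Tested markers of neutrophils and monocytes were mostly higher after LPS, as were Itgam, Itgb2 and Itgal. Of 10 neutrophil markers 5 were high enough to be tested, of which 4 were higher after LPS at ZT1 and 5 at ZT13, and their summed level was 1.01 to 1.68 CPM in ZT1 PBS, 9.97 to 49.8 in ZT1 LPS, 0.759 to 1.25 in ZT13 PBS and 33.2 to 88.2 CPM in ZT13 LPS mice. All 5 monocyte markers were higher at both times, with sums of 0.425 to 0.642 CPM, 4.16 to 15.6 CPM, 0.154 to 0.381 CPM and 12.8 to 35.4 CPM in the same order. No monocyte marker and no tested neutrophil marker reached 1 CPM in a PBS mouse. They entered the test through LPS mice alone, so that their tests favour a difference. Single genes weighed heavily in the sums, with S100a9 at up to 47.3 CPM and Chil3 at up to 24.6 CPM in ZT13 LPS mice. The neutrophil marker Mpo, too low to be tested, was listed at 0.0896 to 0.833 CPM in PBS and 0 to 0.265 CPM in LPS mice. Of 10 microglia markers 7 were higher at each time, 2 were lower at ZT1 and 3 at ZT13, and their sum moved from 222 to 244 up to 273 to 432 CPM at ZT1 and from 221 to 236 up to 334 to 393 CPM at ZT13. Over all tested genes 11.1% were higher and 5.15% lower at ZT1, and 19.2% and 9.4% at ZT13. Within the ZT1 LPS group, replicate 1 was highest and replicate 2 lowest for Itgam, Itgb2 and Itgal alike. The neutrophil sum was highest in replicate 1 (49.8 CPM) and lowest in replicate 5 (9.97 CPM), with 10.4 CPM in replicate 2. Replicate 2 was lowest for the sums of monocyte (4.16 CPM), microglia (273 CPM), perivascular macrophage (10.6 CPM) and endothelial (242 CPM) markers, so that its low level was not particular to 1 cell type. Of 6 markers of perivascular macrophages, which also carry beta2 integrins, 4 were tested and 2 were higher at each time, with sums of 8.04 to 11.3 CPM in ZT1 PBS, 10.6 to 23.9 in ZT1 LPS, 10.2 to 10.7 in ZT13 PBS and 25.8 to 28.9 CPM in ZT13 LPS mice. The part of these cells in the integrin values was not tested. In whole tissue, more cells of a type and more RNA per cell cannot be told apart.

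**Figure D2:**
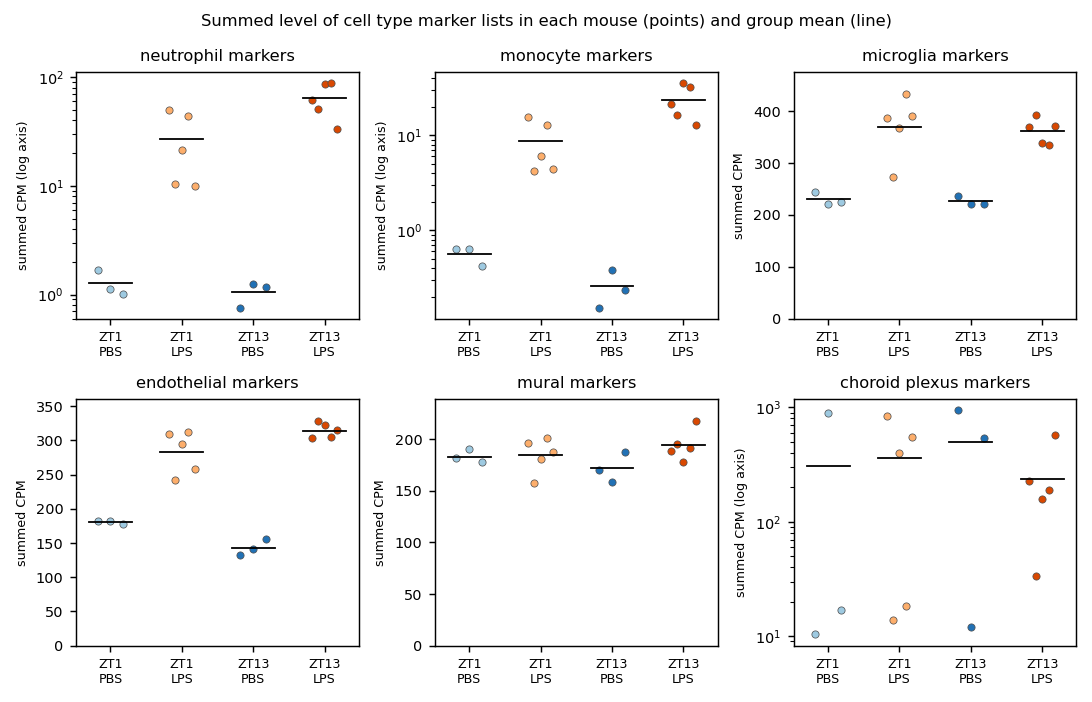
Summed CPM of 6 lists of cell type markers (y axes, logarithmic for neutrophil, monocyte and choroid plexus markers and linear from 0 for the others) in each of the 16 mice (points) with the group mean (line). Neutrophil and monocyte sums of all 10 LPS mice lie above those of all 6 PBS mice, whereas choroid plexus sums range from 10.4 to 947 CPM with both low and high mice in every group.

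The alpha4 chain, which with beta1 or beta7 binds VCAM-1 on inflamed endothelium, rose by a smaller and more even step. At ZT1, Itga4 was at 29.8, 30.8 and 31 CPM in the PBS and 47.7, 35.7, 39, 40.9 and 42 CPM in the LPS mice. For Itga4 at ZT13, PBS mice had 34.4, 34.9 and 32.7 CPM and LPS mice 46.5, 40.1, 43.7, 43.6 and 41.7 CPM. Groups did not overlap at either time, and the log2 fold change was 0.42 ± 0.079 (adjusted p = 0.00447) and 0.34 ± 0.054 (adjusted p = 0.000291), with 8.0% of the exon bases shared with Cerkl on the opposite strand. Itgb7, the second beta partner of alpha4, was at 0.789, 0.642 and 0.505 CPM in ZT1 PBS and 1.87, 1.25, 1.27, 1.65 and 1.09 CPM in ZT1 LPS mice, and at 0.418, 0.833 and 0.538 and 1.95, 1.8, 2.52, 2.24 and 0.851 CPM at ZT13, without overlap. It too entered the test through LPS mice alone, and its fitted log2 fold changes of 0.74 ± 0.18 and 1.08 ± 0.24 are given as values only. Itga9 did not pass the test at either time (0.02 ± 0.081 and 0.18 ± 0.085), and Itgae (alphaE, of intraepithelial lymphocytes) was listed at 0.0379 to 0.602 CPM over the 16 mice. Of 8 T cell markers 2 were high enough to be tested, and neither was called at either time, with sums of 2.29 to 3.61 CPM in the PBS and 2.46 to 5.04 CPM in the LPS mice.

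The alpha5 chain (Itga5), which with beta1 forms the main receptor for fibronectin and is known from angiogenic and inflamed brain vessels, was the most strongly raised integrin outside the leukocyte group. At ZT1, Itga5 was at 4.19, 3.85 and 3.66 CPM with PBS and at 11.8, 11.6, 9.55, 8.96 and 8.97 CPM with LPS. For Itga5 at ZT13, PBS mice had 4.21, 2.91 and 2.55 CPM and LPS mice 14.6, 17, 16.9, 19.6 and 13.6 CPM. All 5 ZT13 LPS mice lay above all 5 ZT1 LPS mice, and these above every PBS mouse. The log2 fold change was 1.27 ± 0.12 (2.41-fold, adjusted p = 3.11e-05) at ZT1 and 2.19 ± 0.14 (4.56-fold, adjusted p = 6.67e-08) at ZT13. Itga5 lies on chromosome 15 at 103344286 to 103366763 (minus strand), and the 250 bases before its RefSeq start, read along the gene with the same capitals as above, hold the PU.1 letters at 1 place and the GC box at 2.
Itga5, chr15:103366792-103367041, minus strand: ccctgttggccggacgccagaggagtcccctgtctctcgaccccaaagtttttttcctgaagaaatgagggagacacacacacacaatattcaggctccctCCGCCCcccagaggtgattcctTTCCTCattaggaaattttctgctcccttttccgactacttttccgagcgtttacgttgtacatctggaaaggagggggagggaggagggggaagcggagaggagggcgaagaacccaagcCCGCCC

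Other receptors for RGD peptides, the short motif of fibronectin and vitronectin, gave a mixed picture, with 2 of 7 tested genes of this group higher at ZT1 and 4 higher and 1 lower at ZT13, Itga5 included. Over all tested genes 11.1% were higher at ZT1, and 19.2% were higher and 9.4% lower at ZT13. Itgav, the alpha chain shared by several beta partners and, with Itgb1, among the highest per length in PBS cortex, went down at ZT13. At ZT13, Itgav was at 104, 104 and 109 CPM in the PBS and 88.4, 93.6, 85, 87.3 and 94.9 CPM in the LPS mice, without overlap, a log2 fold change of -0.23 ± 0.044 (adjusted p = 0.00111). For Itgav at ZT1, PBS mice had 103, 97.2 and 103 CPM and LPS mice 84.3, 76.2, 99.2, 102 and 103 CPM, which overlapped (-0.13 ± 0.092, adjusted p = 0.384). Its partner Itgb5 moved the other way. Itgb5 had 31.8, 33.7 and 31.2 CPM in ZT1 PBS and 40.9, 31.9, 41.6, 47.3 and 47.8 CPM in ZT1 LPS mice, and 31.4, 30.1 and 29.9 and 39.2, 40.9, 35, 34.4 and 45.4 CPM at ZT13. This was an increase of 0.34 ± 0.079 at ZT13 (adjusted p = 0.00459), and the ZT1 call (0.36 ± 0.11, adjusted p = 0.049), where the groups overlapped, was lost without any 1 of 7 of the 8 mice, that is, all but ZT1 LPS replicate 2. The ZT1 call of Itgb5 was also lost with median-of-ratios scaling and with the choroid plexus marker sum as a covariate.

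Itgb3 and Itga2b, which together form the fibrinogen receptor of platelets, were called at ZT13 and not at ZT1. Itgb3 was at 5.24, 4.67 and 5.55 CPM in ZT13 PBS and 5.67, 6.49, 7.42, 7.12 and 7.12 CPM in ZT13 LPS mice (0.36 ± 0.11, adjusted p = 0.0225), and at 5.42, 5.78 and 5.85 and 5.22, 6.13, 7.49, 5.67 and 6.84 CPM at ZT1. Itga2b had 1.52, 1.39 and 1.52 CPM in ZT13 PBS and 2.66, 1.72, 2.81, 2.43 and 2.19 CPM in ZT13 LPS mice (0.52 ± 0.15, adjusted p = 0.0203), and 1.97, 1.93 and 1.6 and 2.47, 2.24, 1.65, 2.35 and 2.22 CPM at ZT1. Treatments did not overlap at ZT13 and overlapped at ZT1 for both genes. The Itgb3 call was lost without ZT13 PBS replicate 1 or 2 or ZT13 LPS replicate 4, the Itga2b call without ZT13 PBS replicate 2 or 3, and both with quantile normalization. Of 7 platelet markers 1 was high enough to be tested and was not called, and the sums were 2.85 to 3.45 CPM in PBS and 1.76 to 3.61 CPM in LPS mice. Itgb8 and Itga8 did not pass the test at either time (log2 fold change -0.12 to 0.22), and Itgb6 was listed at 0 to 0.179 CPM.

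Itgb1 and the laminin receptors were examined next. Beta1 is the common partner of alpha1 to alpha11 (except where alpha4 takes beta7 and alpha6 takes beta4), and its RNA rose in every LPS mouse beyond the PBS mice. At ZT1, Itgb1 was at 38.2, 36.9 and 38.3 CPM with PBS and 58.7, 46.2, 52.4, 55.9 and 47.8 CPM with LPS. For Itgb1 at ZT13, the values were 41.5, 41.4 and 38.9 and 61.4, 58.8, 60.3, 65.7 and 59.2 CPM. The log2 fold change was 0.45 ± 0.075 (adjusted p = 0.00205) at ZT1 and 0.58 ± 0.048 (adjusted p = 6.65e-07) at ZT13.

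Of the 4 chains that make laminin receptors, 1 was higher at ZT1 and 3 at ZT13, beside 11.1% and 19.2% of all tested genes. Itga6 (alpha6), the laminin receptor chain of brain endothelium, showed the clearest response. At ZT1, Itga6 was at 22.1, 22.6 and 23.2 CPM after PBS and 52.4, 36, 41, 43.6 and 38.1 CPM after LPS. For Itga6 at ZT13, PBS mice had 17.1, 14.2 and 18.8 CPM and LPS mice 47.9, 50.5, 43.5, 50.9 and 50.6 CPM. The LPS mice of the 2 times overlapped, while the ZT13 PBS mice lay below the ZT1 PBS mice. These values gave 0.87 ± 0.10 (1.83-fold, adjusted p = 0.000172) at ZT1 and 1.52 ± 0.081 (2.87-fold, adjusted p = 9.24e-09) at ZT13. Itga7, a laminin receptor chain of muscle that is also found in astrocytes and smooth muscle, was at 11.2, 9.11 and 11.6 CPM in ZT13 PBS and 17, 14.7, 14, 15.9 and 17.6 CPM in ZT13 LPS mice (0.56 ± 0.095, adjusted p = 0.00053), and at 12.6, 12.3 and 11.2 and 15.8, 11.4, 12.7, 13.8 and 12.3 CPM at ZT1 (0.12 ± 0.10). Itga3 had 31.4, 25.8 and 29.8 CPM in ZT13 PBS and 32.5, 37.9, 34.9, 35.7 and 35.1 CPM in ZT13 LPS mice (0.28 ± 0.067, adjusted p = 0.00642), against 32.2, 29.8 and 27.8 and 33.8, 35.4, 31.5, 29.8 and 27.3 CPM at ZT1 (0.07 ± 0.084). Both were separated by treatment at ZT13 and overlapped at ZT1. Itgb4, the partner of alpha6 in epithelial hemidesmosomes, did not pass the test (-0.19 ± 0.13 and -0.21 ± 0.12).

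Endothelial markers were mostly higher after LPS, as were Itga6, Itga5, Lama4 and Lama5. Of the 10 markers, 8 were higher and 1 lower at ZT1, and 9 were higher at ZT13. Over all tested genes 11.1% were higher and 5.15% lower at ZT1, and 19.2% and 9.4% at ZT13. The summed endothelial level was 178 to 182 CPM in ZT1 PBS, 242 to 313 in ZT1 LPS, 132 to 156 in ZT13 PBS and 303 to 328 CPM in ZT13 LPS mice. In PBS mice these sums were lower at ZT13 than at ZT1 without overlap, as was Itga6. Itga5, Lama4 and Lama5 overlapped between the PBS mice of the 2 times. Mural markers changed less, with 2 of 10 higher at ZT1 and 4 at ZT13, and sums of 158 to 191 CPM in PBS and 157 to 217 CPM in LPS mice. Of 8 markers of vascular and meningeal fibroblasts, which also make basement membrane chains, 3 were higher and 1 lower at ZT1 and 5 higher and 1 lower at ZT13, with sums of 145 to 184 CPM in ZT1 PBS, 184 to 223 in ZT1 LPS, 145 to 149 in ZT13 PBS and 187 to 216 CPM in ZT13 LPS mice. Astrocyte markers were higher for 4 of 6 genes at ZT1 and 5 at ZT13. The part of any of these in the values of the integrins and laminins was not tested.

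**Figure D3:**
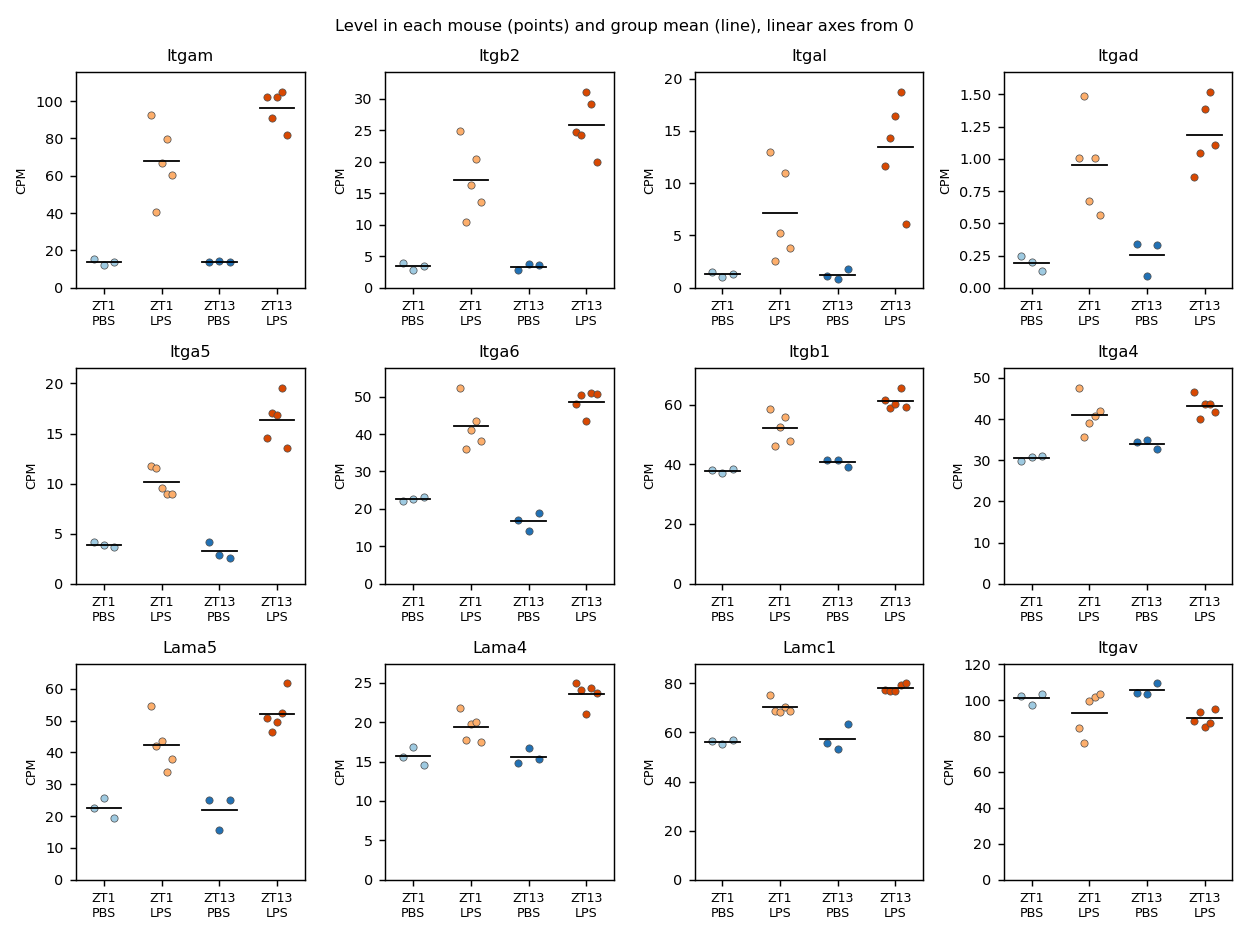
CPM (y axes, linear from 0) of 12 integrin and laminin genes in each of the 16 mice (points) with the group mean (line), for 3 PBS and 5 LPS mice at ZT1 and at ZT13. Except for Itgav, each LPS mouse lies above the PBS mice of its TOD, and for Itga5, Itgb1 and Lamc1 the 5 ZT13 LPS mice also lie above the 5 ZT1 LPS mice.

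Among the 4 collagen-binding alpha chains, 0 were called at ZT1 and 2 at ZT13, beside 16.2% and 28.6% of all tested genes. Itga1, found on vascular smooth muscle and pericytes, was at 11.1, 10.2 and 11.8 CPM in ZT13 PBS and 14.4, 16, 14.5, 15.2 and 12.9 CPM in ZT13 LPS mice (0.39 ± 0.082, adjusted p = 0.00247). At ZT1, Itga1 had 12.9, 13.3 and 12.1 CPM after PBS and 17.8, 12.7, 13.8, 17.7 and 12.3 CPM after LPS, which overlapped. Itga11 was at 3.15, 2.31 and 3.72 and 4.38, 3.78, 4.07, 4.05 and 5.1 CPM at ZT13 (0.44 ± 0.14, adjusted p = 0.0353) and at 3.35, 4.44 and 3.71 and 3.54, 3.54, 4.09, 3.85 and 4.53 CPM at ZT1. Its call was lost under each of 5 of the 8 omissions of a mouse (ZT13 PBS replicates 1 and 2 and ZT13 LPS replicates 1, 4 and 5). Itga2 and Itga10 did not pass the test, and Itga10 shares 33.5% of its exon bases with Gm42957 on the same strand, which was listed at 0.446 to 2.35 CPM.

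The laminin chains divided into those that rose and those that did not, with 4 of 11 higher at both times (Lama4, Lama5, Lamb2 and Lamc1) and 1 lower at ZT13 (Lamb3). Over all tested genes 11.1% were higher at ZT1 and 19.2% at ZT13, and 9.4% were lower at ZT13, so that 1 lower laminin is near the general share. Lama5 gave the largest change. At ZT1, Lama5 was at 22.6, 25.8 and 19.3 CPM in the PBS and 54.5, 42, 43.7, 34 and 38 CPM in the LPS mice. For Lama5 at ZT13, PBS mice had 25.1, 15.5 and 25.1 CPM and LPS mice 50.9, 46.3, 49.5, 52.3 and 61.7 CPM. Treatments did not overlap, and the log2 fold change was 0.89 ± 0.13 (1.85-fold, adjusted p = 0.0011) at ZT1 and 1.26 ± 0.13 (2.40-fold, adjusted p = 7.77e-06) at ZT13. The 250 bases before the Lama5 start on chromosome 2, read along the gene, are shown beside those of Itgam and Itga5 because this chain changed most among the laminins, with the PU.1 letters at 1 place and the GC box at 4 in capitals.
Lama5, chr2:180225860-180226109, minus strand: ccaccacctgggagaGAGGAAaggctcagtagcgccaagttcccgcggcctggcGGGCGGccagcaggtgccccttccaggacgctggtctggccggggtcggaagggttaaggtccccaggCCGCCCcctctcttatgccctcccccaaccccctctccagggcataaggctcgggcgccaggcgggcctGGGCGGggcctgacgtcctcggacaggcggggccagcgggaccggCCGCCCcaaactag

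Lama4, the other endothelial alpha chain, had 15.6, 16.9 and 14.5 CPM in ZT1 PBS and 21.8, 17.7, 19.8, 20.03 and 17.5 CPM in ZT1 LPS mice. At ZT13, Lama4 was at 14.9, 16.7 and 15.3 CPM in PBS and 24.9, 24.2, 21, 24.4 and 23.7 CPM in LPS mice. This was an increase of 0.58 ± 0.069 (adjusted p = 2.15e-05) at ZT13 and of 0.29 ± 0.085 (adjusted p = 0.0369) at ZT1. Lamb2 rose from 41.9, 46.4 and 39.4 to 60.8, 45.2, 51.6, 52.2 and 50.9 CPM at ZT1, where the groups overlapped (0.29 ± 0.085, adjusted p = 0.04), and from 37.8, 42.6 and 42.7 to 56.5, 57, 56.1, 57.8 and 60.8 CPM at ZT13, where they did not (0.49 ± 0.051, adjusted p = 6.42e-06). The ZT1 calls of Lama4 and Lamb2 were each lost under median-of-ratios scaling and without ZT1 PBS replicate 1 or 3 or ZT1 LPS replicate 1, 3 or 4. With the choroid plexus marker sum as a covariate the ZT1 call of Lama4 was lost as well. Leaving aside omissions of a mouse, the Lama4 call was kept in 5 of 11 settings. Lamc1, whose gamma1 chain most of these trimers contain, went from 56.5, 55.4 and 56.8 to 75.3, 68.8, 68.3, 70.3 and 68.7 CPM at ZT1 (0.32 ± 0.045, adjusted p = 0.000775) and from 55.8, 53.2 and 63.6 to 77.5, 77.1, 77, 79.2 and 79.97 CPM at ZT13 (0.44 ± 0.052, adjusted p = 2.11e-05).

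Lama1, Lama2, Lama3, Lamb1 and Lamc3 did not pass the test at either time. Lama2, the alpha chain of astrocyte and mural cell laminin, was at 25.2, 23.8 and 24.8 CPM in ZT1 PBS and 25.4, 27, 23.7, 26.2 and 20.7 CPM in ZT1 LPS mice, with a 95% interval of the log2 fold change of -0.19 to 0.18 at ZT1 and -0.15 to 0.10 at ZT13. Lama1 was at 10.9, 10.5 and 11.8 CPM in ZT13 PBS and 9.88, 9.97, 8.05, 9.85 and 10.3 CPM in ZT13 LPS mice, which did not overlap (-0.20 ± 0.09, adjusted p = 0.119). Lama3 was lower in each of the 5 LPS mice (9.65, 9.71, 10.1, 10.7 and 10.3 CPM) than in the 3 PBS mice (12.2, 12.3 and 11.2 CPM) at ZT1, short of the threshold (-0.23 ± 0.075, adjusted p = 0.06). Lamb3, an epithelial chain, fell at ZT13 from 2.2, 2.68 and 2.02 to 1.82, 1.63, 1.64, 1.52 and 1.52 CPM (-0.39 ± 0.14, adjusted p = 0.0461), and at ZT1 it was at 1.87, 1.68 and 1.64 and 1.35, 1.97, 1.41, 1.02 and 1.13 CPM. That call held without ZT13 LPS replicate 1 and was lost under each of the other 7 omissions.

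The make-up of the laminin alpha and beta chain pools, counted per kb of exon, differed between PBS and LPS mice. Lama5 accounted for 28.7% ± 2.4 (SD, n = 3) of the alpha chain pool in ZT1 PBS, 41.8% ± 4.3 (n = 5) in ZT1 LPS, 27.7% ± 5.4 (n = 3) in ZT13 PBS and 46.4% ± 2.3 (n = 5) in ZT13 LPS mice, and the ranges of PBS and LPS mice did not overlap at either time. Lama2 accounted for 22.0% ± 1.9, 17.0% ± 1.9, 22.2% ± 2.7 and 15.2% ± 0.80 in the same order. In the beta pool the share of Lamb2 was 69.4% ± 0.63, 73.9% ± 1.7, 70.1% ± 2.3 and 75.4% ± 1.7.

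**Figure D4:**
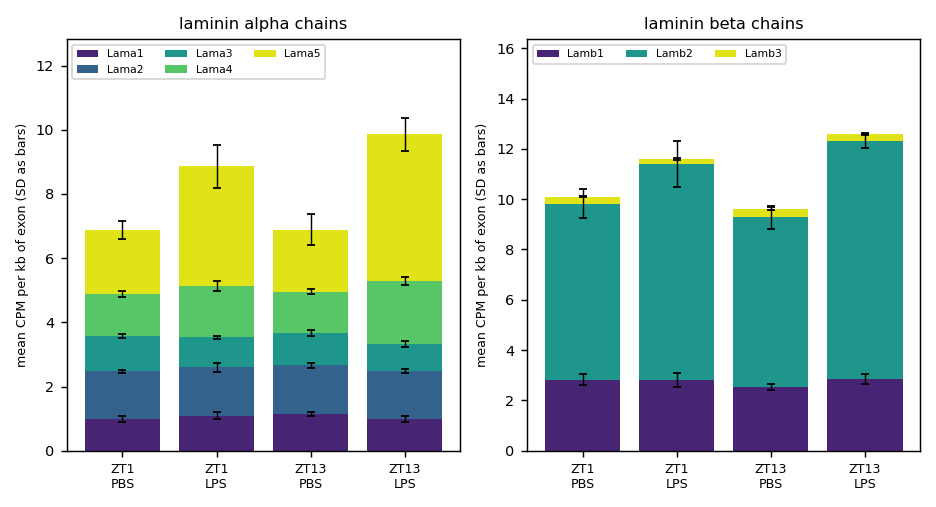
Mean CPM per kb of exon (y axes, stacked bars from 0) of the laminin alpha and beta chains in the 4 groups, with the SD over mice (n = 3 PBS, n = 5 LPS) drawn at the top of each chain's segment. The Lama5 segment grows from 28.7% to 41.8% of the alpha pool at ZT1 and from 27.7% to 46.4% at ZT13, and the Lamb2 segment is 69.4% to 75.4% of the beta pool.

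To ask whether the response depends on TOD, the LPS mice of the 2 times were compared with each other. Of the 34 genes 0 were called, beside 0.0212% of all tested genes (0.0106% higher and 0.0106% lower), and 12 had an unadjusted p under 0.05 (10.6% of all tested genes), each of them higher at ZT13. In all, 23 of the 34 were positive, as were 55.6% of all tested genes. The median log2 difference was 0.11, against 0.013 over all tested genes. Itga5 was nearest the threshold, with 0.66 ± 0.11 (1.58-fold, adjusted p = 0.0718, n = 5 against 5, limma). Itga5, Itgb1 and Lamc1 were the 3 genes whose LPS mice did not overlap between times, all higher at ZT13 (1.55% of all tested genes did so in this direction and 0.408% in the other). Other differences among the 12 were 0.15 ± 0.036 for Lamc1 (adjusted p = 0.14), 0.28 ± 0.069 for Lama4 (adjusted p = 0.147), 0.23 ± 0.063 for Itgb1 (adjusted p = 0.191), 0.55 ± 0.17 for Itgam and 0.62 ± 0.19 for Itgb2 (adjusted p = 0.231 for both). Itgal differed by 1.01 ± 0.38, with an interval of 0.18 to 1.84 and overlapping groups. Itga3, Itga6, Itga7, Lama5 and Lamb2 were also among the 12.

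This comparison turned on single mice and on the fit. Without ZT1 LPS replicate 1, the mouse with the highest Itgam, Itgb2, Itga6, Itgb1, Itga4, Lama4, Lama5, Lamb2 and Lamc1 of its group, 8 genes were called higher at ZT13 (Itga5, Itga6, Itgam, Itgb1, Itgb2, Lama4, Lama5 and Lamc1), beside 1.83% of all tested genes. Itga5 was also called without ZT1 LPS replicate 2 (adjusted p = 0.0393), with all 16 samples in a single fit (adjusted p = 0.0289) and with sample quality weights (adjusted p = 0.00823). Neutrophil and monocyte sums, given above, overlapped between the LPS groups and reached higher values at ZT13, and endothelial sums overlapped. Perivascular macrophage sums did not overlap, with all 5 ZT13 LPS mice above the ZT1 LPS mice. Of the 4 tested markers of that list 0 were called between the LPS groups (0.0212% of all tested genes). Their log2 differences ran from -0.038 ± 0.17 for Lyve1 to 0.85 ± 0.24 for F13a1 (adjusted p = 0.197, limma). The part of these cells in the TOD differences was not tested.

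In the PBS mice 0 of the 34 genes differed between ZT13 and ZT1 (background 0.52%, with 0.302% higher and 0.217% lower), and 5 had an unadjusted p under 0.05 (13.5% of all tested genes). Itga6 came closest, at 17.1, 14.2 and 18.8 CPM at ZT13 against 22.1, 22.6 and 23.2 CPM at ZT1, a difference of -0.44 ± 0.094 (adjusted p = 0.091, n = 3 against 3, limma). With quantile normalization it was called (adjusted p = 0.0466). The other 4 were Itga4 (0.15 ± 0.05), Lama1 (0.22 ± 0.096), Itga1 (-0.20 ± 0.084) and Lamb1 (-0.16 ± 0.07). Of the 34, 12 were positive (49.8% of all tested genes). Groups did not overlap for 5 genes higher and 5 lower (background 9.52% and 9.21%). Of the 10 endothelial markers 2 were called lower in ZT13 PBS than in ZT1 PBS mice and 0 higher. Their log2 difference was negative, like that of Itga6, for 8 and positive for 2 (Ly6c1 at 0.32 ± 0.086 and Slco1a4 at 0.21 ± 0.093). For Itgam, Itgb2, Itgal and Itgad the log2 differences in PBS mice were 0.02 ± 0.095, -0.02 ± 0.15, -0.06 ± 0.21 and 0.11 ± 0.19, and their groups overlapped.

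**Figure D5:**
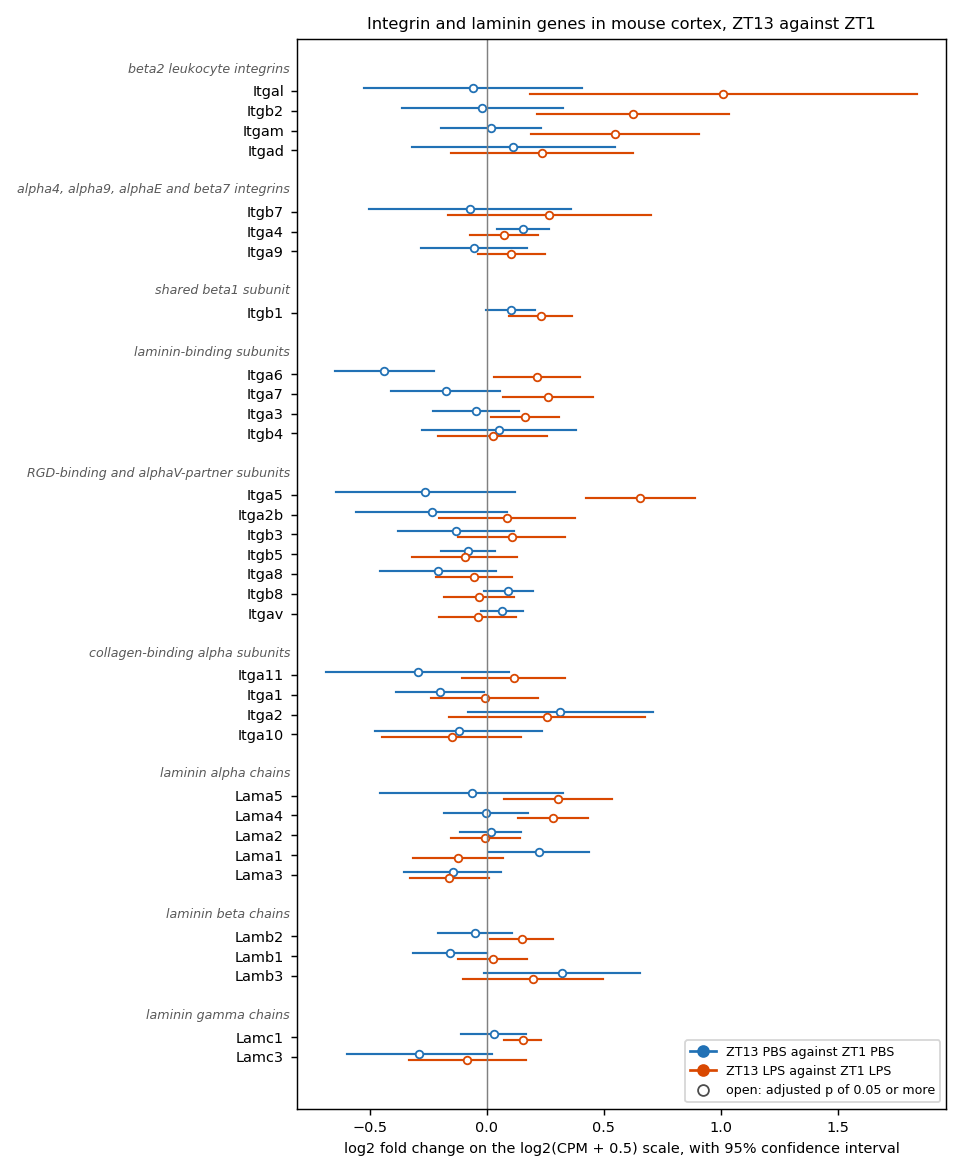
Log2 difference between ZT13 and ZT1 (x axis, on the log2(CPM + 0.5) scale) with its 95% confidence interval for 33 of the 34 tested genes, in PBS mice (blue, n = 3 against 3) and LPS mice (orange, n = 5 against 5). All points are open because 0 genes had an adjusted p under 0.05, and among LPS mice Itgal is farthest right (1.01) with the widest interval and Itga5 next (0.66), while Itga6 lies at -0.44 in the PBS and 0.21 in the LPS mice.

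The TOD × treatment interaction, which tests whether the LPS effect itself differs between ZT13 and ZT1, called 0 of the 34 genes (background 0.159%, with 0.122% positive and 0.0371% negative), and 8 had an unadjusted p under 0.05 (9.25% of all tested genes). The interaction was positive for 22 of the 34 (54% of all tested genes), with a median of 0.17 against 0.014 over all tested genes. For Itga5 the interaction was 0.92 ± 0.20 on the log2 scale (adjusted p = 0.0802) and for Itga6 0.65 ± 0.14 (adjusted p = 0.083, limma, all 16 mice). Without ZT1 LPS replicate 1 both were called (adjusted p = 0.0315 and 0.00929), and without ZT13 PBS replicate 1 Itga5 was (adjusted p = 0.0253). Sample quality weights called both (adjusted p = 0.0175 and 0.0136), and a fit with the choroid plexus sum as a covariate called Itga6 (adjusted p = 0.035). Of the Itga6 difference, 0.21 came from the LPS mice and -0.44 from the PBS mice, which is a larger part in PBS. For Itga5 the corresponding values were 0.66 and -0.26. Itga7 (0.44 ± 0.14), Lama4 (0.29 ± 0.11), Itgb2 (0.64 ± 0.29), Itgam (0.53 ± 0.24), Itga11 (0.41 ± 0.19) and Lama1 (-0.35 ± 0.14) were the other 6. The 6 genes called at ZT13 and not at ZT1 are thereby not shown to differ between times. Of the 10 endothelial markers 4 had an interaction past the threshold, each of them positive. The interaction was positive for 8 of the 10 and negative for 2, Ly6c1 (-0.40 ± 0.14) and Slco1a4 (-0.44 ± 0.18), neither of them called.

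The partners of these receptors were followed through 3 lists. Of 24 tested integrin ligands other than laminins, 8 were higher and 3 lower at ZT1 and 10 higher and 3 lower at ZT13. Over all tested genes 11.1% were higher and 5.15% lower at ZT1, and 19.2% and 9.4% at ZT13. Icam1, the ligand of the beta2 integrins on endothelium, rose by 2.95 ± 0.14 at ZT1 (adjusted p = 2.58e-07) and 3.65 ± 0.12 at ZT13 (adjusted p = 9.75e-11). Vcam1, the ligand of alpha4 integrins, rose by 1.51 ± 0.14 (adjusted p = 3.77e-05) and 1.56 ± 0.092 (adjusted p = 2.58e-08). Spp1 (osteopontin, a ligand of alphaV and alpha4 integrins) rose by 2.70 ± 0.17 (adjusted p = 2.3e-06) and 3.05 ± 0.12 (adjusted p = 4.31e-10), and Vwf, the endothelial ligand of platelets, by 1.75 ± 0.18 (adjusted p = 8.01e-05) and 1.93 ± 0.092 (adjusted p = 3.24e-09). In the LPS mice 0 of the 24 differed between times (background 0.0212%).

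Other genes of the basement membrane and of laminin binding were counted as well. Of 18 tested, 7 were higher at ZT1 (11.1% of all tested genes) and 8 at ZT13 (19.2%), with 0 lower (5.15% and 9.4%). Col4a1 and Col4a2, the collagen IV chains of the vascular basement membrane, rose by 1.12 ± 0.10 (adjusted p = 3.55e-05) and 0.67 ± 0.072 (adjusted p = 0.000109) at ZT1 and by 2.06 ± 0.051 (adjusted p = 7.18e-12) and 1.57 ± 0.057 (adjusted p = 3.05e-10) at ZT13. Both had an interaction past the threshold, of 0.94 ± 0.13 (adjusted p = 0.00378) and 0.90 ± 0.10 (adjusted p = 0.00075), and Col4a2 differed between LPS mice of the 2 times by 0.54 ± 0.065 (adjusted p = 0.0159). In PBS mice both were lower at ZT13 than at ZT1, by -0.40 ± 0.060 (adjusted p = 0.0306) and -0.36 ± 0.055 (adjusted p = 0.0337). Sparc, a collagen-binding matrix protein, rose by 0.62 ± 0.068 at ZT1 (adjusted p = 0.000117) and 0.85 ± 0.033 at ZT13 (adjusted p = 5.68e-10). Nid1 (nidogen, which ties laminin to collagen IV) was the other gene of the 4 with the smallest p at ZT1 (0.79 ± 0.074, adjusted p = 3.7e-05), and Hspg2 (perlecan) at ZT13 (2.21 ± 0.10, adjusted p = 2.95e-09). Of 28 genes of integrin adaptors and signalling, 12 were higher and 2 lower at ZT1 and 17 higher and 2 lower at ZT13, beside the same shares of all tested genes. Fermt3 (kindlin-3, the kindlin of blood cells) rose by 1.54 ± 0.16 at ZT1 (adjusted p = 8.01e-05) and 2.11 ± 0.099 at ZT13 (adjusted p = 2.95e-09), and Tln1 (talin-1) by 0.72 ± 0.10 (adjusted p = 0.000754) and 1.16 ± 0.054 (adjusted p = 2.95e-09). Flna (filamin A) rose by 0.62 ± 0.088 (adjusted p = 0.000739) and 0.93 ± 0.044 (adjusted p = 3.22e-09). The remaining gene named at ZT1 was Ptk2b, a kinase of the focal adhesion kinase family (0.36 ± 0.043, adjusted p = 0.00021), and at ZT13 Pxn, which encodes paxillin (0.77 ± 0.046, adjusted p = 2.62e-08).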

How the data were processed

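RNA of 16 mouse cortices was sequenced after ribosomal RNA depletion, and the submitters' processing notes name DRAGEN 4.0.3-8, bcl2fastq and GRCm38. The authors deposited 1 table of CPM, which sums to 1000000 per sample over 55487 genes once 287 identical repeats are dropped, so that no factor other than the library total scales the samples. The counting tool, its settings and its use of strand are not given in the sources used here. Between 80.7% and 82.6% of values up to 20 reads were whole multiples of 1 read (within 0.01 read), so counts were not recovered and no count test was run.

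Samples were grouped by title. Log2(CPM + 0.5) was fitted with limma 3.58.1 (R 4.3.3) with an intensity trend for the 18859 genes that reached 1 CPM in 3 or more samples. Adjustment (Benjamini-Hochberg) ran over all of these, and a gene was called at an adjusted p under 0.05. Each comparison used its 2 groups, and the interaction all 16 samples. The fits were tested on simulated data. Whether replicates within a group share a cage or batch is not given, and p-values measure the spread between these mice. Exon lengths and positions are from GENCODE M21, and promoter windows from RefSeq (GRCm38.p6). The members and lists were chosen with earlier results of these data known. The values of 1 member are not reported here, and it is included in the counts. Members called in any comparison are given by mouse, and of each list at most 4 genes, those with the smallest adjusted p in the comparison described. Fitted fold changes understate those of genes near the pseudocount. Alternatives were the pseudocount, the filter, scaling, variance model, sample weights, a replicate block, a single fit and omission of each mouse; a choroid plexus covariate was added after seeing the data.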

Additional observations from a re-analysis of the deposited data

Results flagged for a closer look

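The gap between 1 mouse and the rest of its group was larger than Dixon's 95% limit for 2 values. Lama1 in ZT13 LPS replicate 3 was at 8.05 CPM, below the 9.85 to 10.3 CPM of the other 4 mice, and Lamc1 in ZT1 LPS replicate 1 was at 75.3 CPM, above the 68.3 to 70.3 CPM of the other 4. Of 74 groups of 5 mice tested in this way, chance alone flags about 1 in 20, or 3.7.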

How the results depend on the processing

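The number of genes called was 14 at ZT1 and 22 at ZT13 and ranged from 10 to 15 and from 17 to 23 over the alternatives (10 to 14 and 19 to 23 with each mouse left out). For ZT13 LPS against ZT1 LPS it was 0, and became 2 with sample quality weights, 1 with a single fit of 16 samples and 0 to 8 with each mouse left out. For ZT13 PBS against ZT1 PBS it was 0 and became 1 with quantile normalization. For the interaction it was 0, and became 2 with sample quality weights, 1 with the choroid plexus covariate and 0 to 2 with each mouse left out. The causes were not tested. Among the genes called, 224 of 264 refitted values kept the call and direction at ZT1 and 380 of 413 at ZT13, 40 and 33 lost the call and 0 changed direction, and 8 of 14 and 15 of 22 genes were called in every setting. Quantile normalization moved the median of all genes by -0.11 at ZT13. Replicate numbers did not pair the mice (correlations of deviations from -0.199 to 0.328 between mice of the same number), and with the replicate block 11 genes were called at ZT1, 19 at ZT13 and 0 in the other comparisons. Itgad, Itgae, Itgax and Itgb6 stand on few reads, and each PBS group holds 3 mice, which limits how small a difference could be called.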
